A study of Mus musculus with 8 samples.

Results

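Toll-like receptors are the germline-encoded sensors through which cells recognise microbial molecules and material released from damaged tissue. Those at the cell surface bind lipopeptides, lipopolysaccharide or flagellin, and those in endosomes bind nucleic acids. Ligand binding brings adaptor proteins such as MyD88 to the receptor's intracellular TIR domain and leads to activation of NF-kB and interferon regulatory factors. In the heart, both resident immune cells and other cells can express them. The genes followed were Tlr1, Tlr2, Tlr3, Tlr4, Tlr5, Tlr7, Tlr8, Tlr9, Tlr12 and Tlr13, 10 genes in all, and every probe whose accession maps to one of them was used. These were 11 of the 39429 probes outside the control spots, 1 for each gene except Tlr7, which had 2.

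RNA came from hearts of male C57BL6 mice, with 4 control samples (control 1 to 4) and 4 samples from double transgenic mice (dtg 1 to 4). Control mice carried Cre recombinase without floxed Igf1r, the gene of the IGF-1 receptor, and dtg mice were merCremer/+ IGFloxP/IGFloxP. Both groups received 500 µg of 4OH-tamoxifen on 10 days at 8 months of age, meant to remove exon 3 of Igf1r in dtg mice, and hearts were taken 6 weeks later. The labels do not name the promoter that drives the Cre. Nor do they state that every sample was its own animal, and p-values therefore cover the spread among these 8 samples, part of which may be technical.

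Each sample was read on 1 Agilent array with a single dye. A level is the log2 signal of a probe minus the 75th percentile of its array, so that 0 is the signal below which 3 of 4 probes lie. The 75th percentile was between 679.7 and 946.0 intensity units, and between 59.1% and 71.5% of probes were well above background. That share was 64.9% ± 4.8 in controls and 67.1% ± 4.41 in dtg hearts (SD, n = 4 each; two-sided exact permutation p = 0.514, with 0.0286 the smallest p that 4 against 4 allows). Controls 1 and 2 and dtg 1 and 4 were on slide 1, and the others were on slide 2. The dtg minus control difference of Igf1r was -0.43 on the log2 scale with an SE of 0.24 and did not pass the test (adjusted p = 1, limma with Benjamini-Hochberg adjustment). The position of its probe in the gene was not settled here, so this value does not check the genotype. All 8 heart muscle markers were measured. The linear signals summed to 2518 to 2680 times the 75th percentile signal in controls and to 2419 to 2659 times in dtg hearts. All 6 atrial markers had a lower dtg mean (median -0.88, sums 59.7 to 682.4 in controls and 70.5 to 524.4 in dtg), and all 5 measured erythroid markers a higher one (median 0.42, sums 527.1 to 961.8 and 769.4 to 1020). None of these genes passed the adjusted threshold, and the part of atrial tissue or blood in the receptor values was not tested.

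The promoters of 8 of the 10 receptors were in a RefSeq table of build GRCm38.p6, and were read over the 250 bases before each annotated start. Of these, 3 are shown for the receptors described most closely here: Tlr9, which had the largest slide difference of the receptors above background on all arrays, Tlr13, which varied little, and Tlr12, which differed most between groups. They lie at chr9:106222348-106222597 (plus strand), chrX:106143025-106143274 (plus strand) and chr4:128618620-128618869 (minus strand), each printed in the direction of transcription. These windows hold none of the other motifs searched. Capitals mark GAGGAA, a core bound by the myeloid factor PU.1, searched on both strands.
Tlr9: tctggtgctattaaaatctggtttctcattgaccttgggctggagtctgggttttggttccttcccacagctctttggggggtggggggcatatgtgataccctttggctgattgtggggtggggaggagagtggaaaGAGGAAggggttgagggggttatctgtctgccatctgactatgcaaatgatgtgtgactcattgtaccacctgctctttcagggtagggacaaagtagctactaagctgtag
Tlr13: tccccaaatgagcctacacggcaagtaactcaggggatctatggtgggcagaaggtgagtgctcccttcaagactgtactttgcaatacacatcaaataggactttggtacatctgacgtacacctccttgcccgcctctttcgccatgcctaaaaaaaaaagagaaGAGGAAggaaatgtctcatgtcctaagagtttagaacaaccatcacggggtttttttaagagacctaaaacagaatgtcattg
Tlr12: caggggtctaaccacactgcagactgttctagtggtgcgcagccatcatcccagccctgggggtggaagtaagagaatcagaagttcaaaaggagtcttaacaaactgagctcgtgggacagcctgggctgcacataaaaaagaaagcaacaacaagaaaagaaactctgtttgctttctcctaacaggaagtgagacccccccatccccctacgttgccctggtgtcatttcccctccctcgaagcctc
The motif was in the windows of Tlr8, Tlr9 and Tlr13 and in 1 of the 2 of Tlr1, and 23.3% of 32841 promoters of this length hold it. TATAAA was in the window of Tlr8 alone (12.4% of all). Only 1 fixed form of the NF-kB motif was searched, and it was found for Tlr3 alone (1.41%). The interferon-response motif was likewise searched in 1 fixed form, which was in none of the 8 (2.98%). Looser forms of either motif were not searched, so a window without a match may still hold one. A match describes letters in the window and not a binding site.

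Of the 10 receptors, 7 were well above background on all 8 arrays, namely Tlr1, Tlr2, Tlr3, Tlr4, Tlr7, Tlr9 and Tlr13. Tlr12 was above background on 6 arrays, Tlr5 on 2 and Tlr8 on none. Each array had 8 receptors above background. A receptor entered the fit over all genes if it was above background on at least 4 arrays, which held for 8 of them. Negative-control spots give the scale of the dim end, with medians per array between -7.65 and -7.25 and 95th percentiles between -7.31 and -6.87. The Tlr8 probe exceeded that 95th percentile on 3 of 8 arrays, whereas the other 10 receptor probes did so on all 8. Probes differ in how strongly they bind, so levels place each receptor above or near background and do not rank the receptors by transcript.

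**Figure D1:**
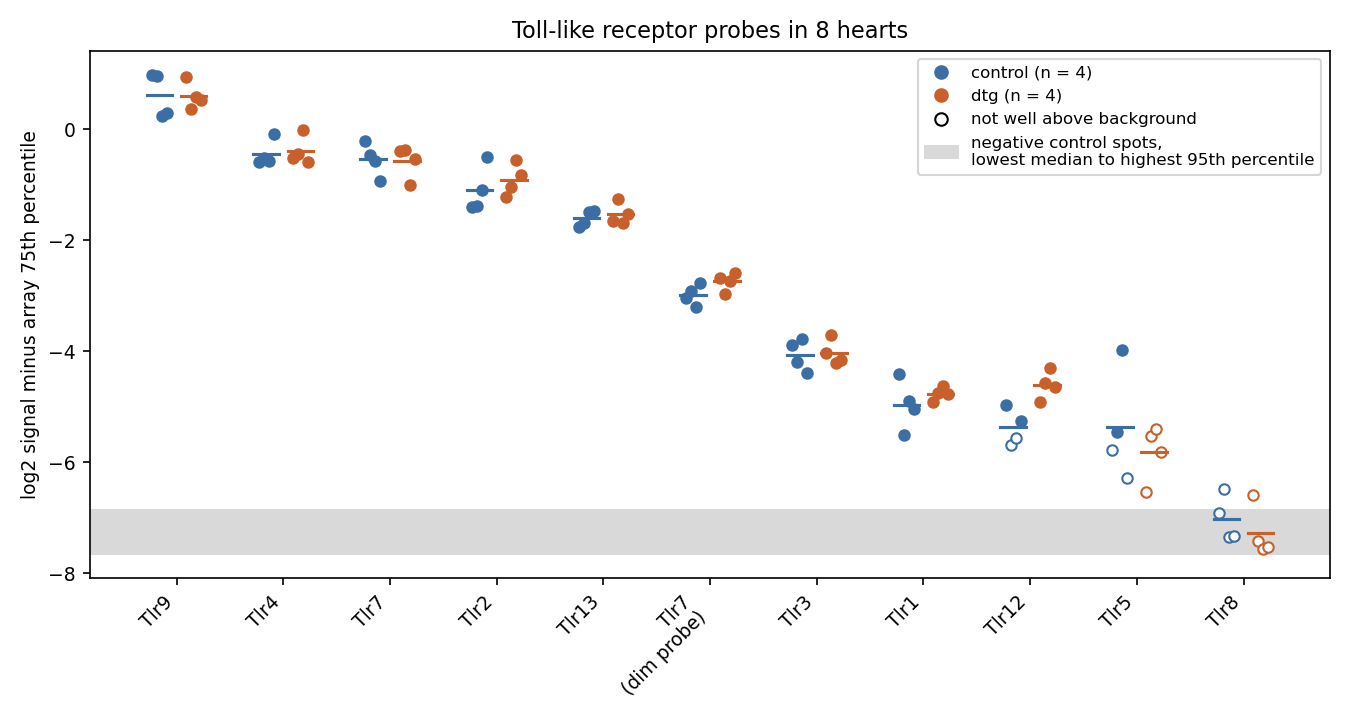
Log2 signal minus the array's 75th percentile (vertical axis) for the 11 probes of the 10 Toll-like receptor genes on each of the 8 arrays. Horizontal lines are group means. The grey band runs from the lowest array median to the highest array 95th percentile of the negative-control spots. Single such spots lay above it, the highest at -4.74 on control 3. Filled points are well above background and open points are not. Only filled points were seen for 7 receptors, whereas Tlr12, Tlr5 and Tlr8 had open points.

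Of the receptors at the cell surface, Tlr2 recognises bacterial lipopeptides together with Tlr1 or Tlr6. Tlr2 was at -1.40, -1.38, -1.10 and -0.51 in controls 1 to 4. In dtg hearts 1 to 4 it was at -1.22, -1.04, -0.56 and -0.83. Control 4 and dtg 3 had the highest levels, and the groups overlapped, with a difference (dtg minus control) of 0.18 and an SE of 0.23. The difference was 0.36 within slide 1 and 0.0042 within slide 2. This probe was printed in 10 spots, whose SD on an array was between 0.0403 and 0.0732, against an SD between hearts of 0.41 in controls and 0.28 in dtg. Every Tlr2 spot on control 4 and dtg 3 was brighter than every Tlr2 spot on the other 6 arrays, after scaling. Spots of one array share their labelling, hybridisation and slide, so the spot SD covers reading error alone.

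Tlr1, the partner of Tlr2 for triacylated lipopeptides, was dim but measured on every array. It was at -4.42, -5.51, -4.91 and -5.05 in controls and at -4.91, -4.75, -4.63 and -4.78 in dtg hearts. The dtg hearts lay within the control range, at a difference of 0.20 with an SE of 0.22. Without control 2 the difference was 0.022. It was below 0 after quantile normalization, in the deposited table and with normexp background correction (-0.11). With normexp and spots darker than their surroundings left out, it was 0.039. Tlr4 senses lipopolysaccharide with the co-receptors CD14 and MD-2. Its level was -0.59, -0.52, -0.58 and -0.091 in controls and -0.52, -0.45, -0.015 and -0.59 in dtg hearts. The same hearts that were high for Tlr2, control 4 and dtg 3, were high for Tlr4, and the group difference was 0.053 with an SE of 0.17.

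Tlr5, the flagellin receptor, was near background. Its probe was well above background on controls 2 and 3 and on none of the dtg arrays. The levels were -5.78, -5.45, -3.98 and -6.28 in controls and -6.55, -5.54, -5.40 and -5.81 in dtg hearts. The control mean was 1.37-fold higher, a log2 difference (dtg minus control) of -0.45 with an SE of 0.50. Controls 1 and 4 and all dtg hearts were not well above background, so this fold is not a lower limit. The difference rests on control 3, without which it was 0.013.

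Among the endosomal receptors, Tlr3 binds double-stranded RNA. It was at -3.88, -4.19, -3.79 and -4.40 in controls and -4.03, -3.71, -4.22 and -4.17 in dtg hearts. The groups overlapped, with a difference of 0.032 and an SE of 0.18. Tlr9 senses DNA with unmethylated CpG. Its levels were 0.98, 0.97, 0.24 and 0.29 in controls and 0.93, 0.36, 0.58 and 0.52 in dtg hearts. The groups did not separate, at a difference of -0.018 with an SE of 0.22, but the slides nearly did. Over all features, 17.5% had slides that did not overlap at all.

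The mean of Tlr9 on slide 2 minus that on slide 1 was -0.48, and only dtg 3 and dtg 4 were out of that order. Tlr13 had 1 heart, dtg 3, out of the opposite order, and Tlr2 was higher on slide 2 by a mean of 0.40. Within slides the dtg minus control difference of Tlr9 was -0.25 and 0.21, of opposite sign. The summed level of 6 of 6 T cell markers was 4.09 to 5.14 times the 75th percentile signal on slide 1 and 1.66 to 2.16 on slide 2, whereas the ranges of the B cell markers overlapped between slides (0.60 to 0.702 and 0.418 to 0.652, with 4 of 6 markers measured). The T cell sum was mostly Cd4 and Cd3e, at mean levels of 0.85 and -0.13 against -2.98 or less for the other 4. The mean log2 level over the 6 T cell markers overlapped between slides (-2.76 to -2.18 on slide 1 and -3.45 to -2.73 on slide 2). The part of these cells, or of the slide, in the Tlr9 values was not tested. In bulk heart RNA, fewer cells of a type and less RNA per cell cannot be told apart.

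Tlr7 and Tlr8 sense single-stranded RNA, and Tlr13 senses bacterial ribosomal RNA. The brighter Tlr7 probe was at -0.21, -0.46, -0.57 and -0.94 in controls and -0.39, -0.38, -1.01 and -0.54 in dtg hearts. Control 4 and dtg 3 were the lowest of their groups, and the difference was -0.037 with an SE of 0.20. The dimmer Tlr7 probe was at -3.04, -2.92, -3.21 and -2.77 in controls and -2.68, -2.98, -2.73 and -2.59 in dtg hearts, a difference of 0.24 with an SE of 0.14. The 2 probes of this gene thus disagreed, in the sign of the difference and across hearts (r = -0.355 over 8 arrays), and no single direction is given for Tlr7.

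The Tlr13 level ranged from -1.76 to -1.47 in controls and from -1.68 to -1.25 in dtg hearts. It varied less between hearts than Tlr2 did, with an SD over the 8 arrays of 0.17 against a median of 0.24 for the 500 probes nearest in brightness; for Tlr2 these were 0.34 and 0.23. The difference was 0.070 with an SE of 0.14, and -0.11 after another background correction (normexp). Normexp gave control 4 a background of -1740 intensity units, against 10.9 once its 12 spots darker than their surroundings were left out, and with such spots left out on all arrays the Tlr13 difference was 0.023. The Tlr8 signal, not well above background on any array, ran from -7.34 to -6.49 in controls and from -7.57 to -6.59 in dtg hearts, and no fold is given for it.

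**Figure D2:**
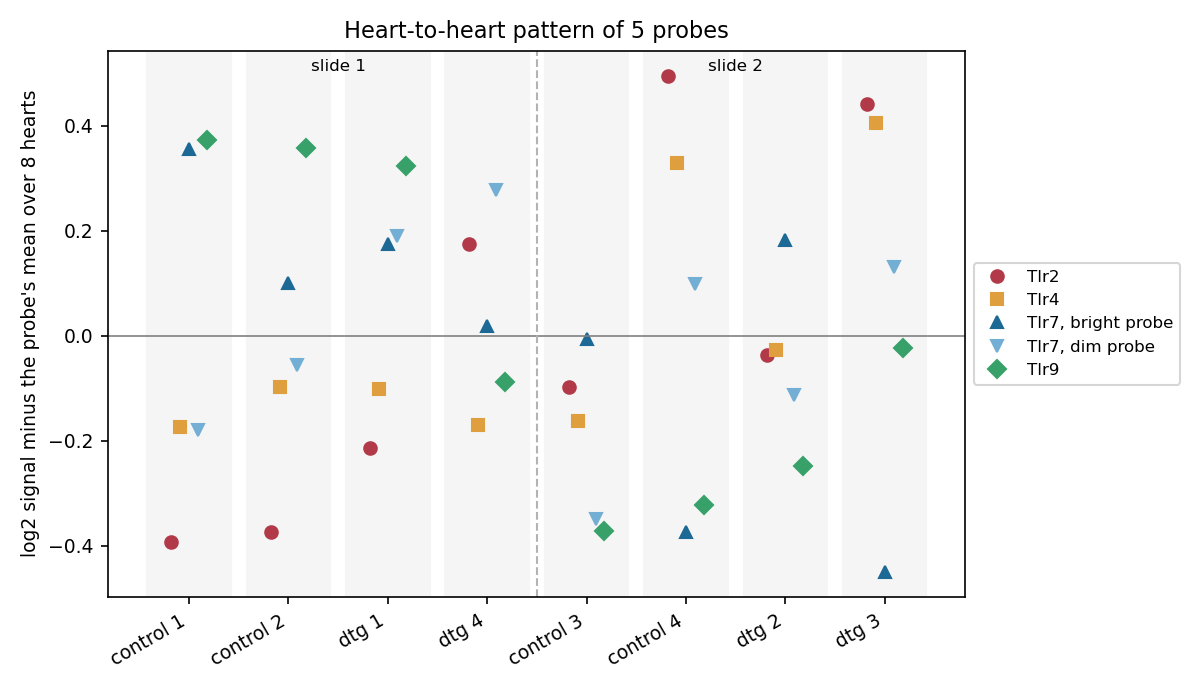
Log2 level of the probes of Tlr2, Tlr4, Tlr7 (both) and Tlr9 minus each probe's mean over the 8 hearts (vertical axis), by array. Tlr2 and Tlr4 were highest in control 4 and dtg 3, where the brighter Tlr7 probe was lowest, and Tlr9 was higher in most hearts on slide 1 than on slide 2.

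Across hearts, Tlr2 and Tlr4 correlated at r = 0.817 and Tlr2 and the brighter Tlr7 probe at r = -0.90, over 8 arrays that share slides and scaling. These values rest in part or whole on 2 hearts. Without control 4 and dtg 3, which were left out because of their values, r was -0.020 for Tlr2 with Tlr4 and -0.615 for Tlr2 with the brighter Tlr7 probe. The dimmer Tlr7 probe had the opposite sign against Tlr2, at r = 0.486 over all 8 arrays and 0.404 without those 2 hearts. The macrophage markers, 12 of 13 measured, had a summed level of 46.1 to 57.3 times the 75th percentile signal in controls and 45.1 to 53.3 in dtg hearts. The neutrophil markers, 6 of 9 measured, ranged from 63.0 to 79.3 and from 62.6 to 78.7, a sum carried mostly by Csf3r (mean level 6.06). The mean log2 level over these 6 markers, in which each counts alike, was -0.93 to -0.56 in controls and -0.71 to -0.41 in dtg hearts. The ranges of the groups overlapped in each of these measures, and the part of these cells in the receptor values was not tested.

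Tlr12 recognises profilin of protozoan parasites. Its probe was at -4.97, -5.69, -5.57 and -5.25 in controls 1 to 4 and at -4.93, -4.58, -4.31 and -4.65 in dtg hearts 1 to 4. In signal these were 25.4, 15.9, 20.0 and 17.9 intensity units in controls and 27.9, 38.5, 40.0 and 28.1 in dtg hearts. Every dtg heart lay above every control, though control 1 and dtg 1 were close. The means were -5.37 ± 0.33 and -4.62 ± 0.25 (SD, n = 4 each), a difference of 0.75 with an SE of 0.20. The difference was 0.54 within slide 1 and 0.96 within slide 2. The probe was well above background on all 4 dtg arrays and on 2 control arrays, so the control mean includes 2 values, of controls 2 and 3, that were not well above background.

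This separation of the Tlr12 values did not hold on the other scales tried. The groups overlapped after quantile normalization (difference 0.50), after scaling to the array median (0.67) and in the authors' deposited log2 table (0.495). They also overlapped after normexp background correction with dark spots left out (0.16) or kept (0.012). Both normexp runs added an offset of 50 intensity units, which by itself shrinks log2 differences of dim probes. With dark spots kept, the fitted background was -1740 units on control 4 and -461.9 on dtg 4. With such spots left out it was 10.9 and 10.3. The plain spot median minus local background was 45.5 to 52.5 in controls and 52.5 to 65.0 in dtg hearts, so that the groups touched. The direction was the same on each of these scales.

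**Figure D3:**
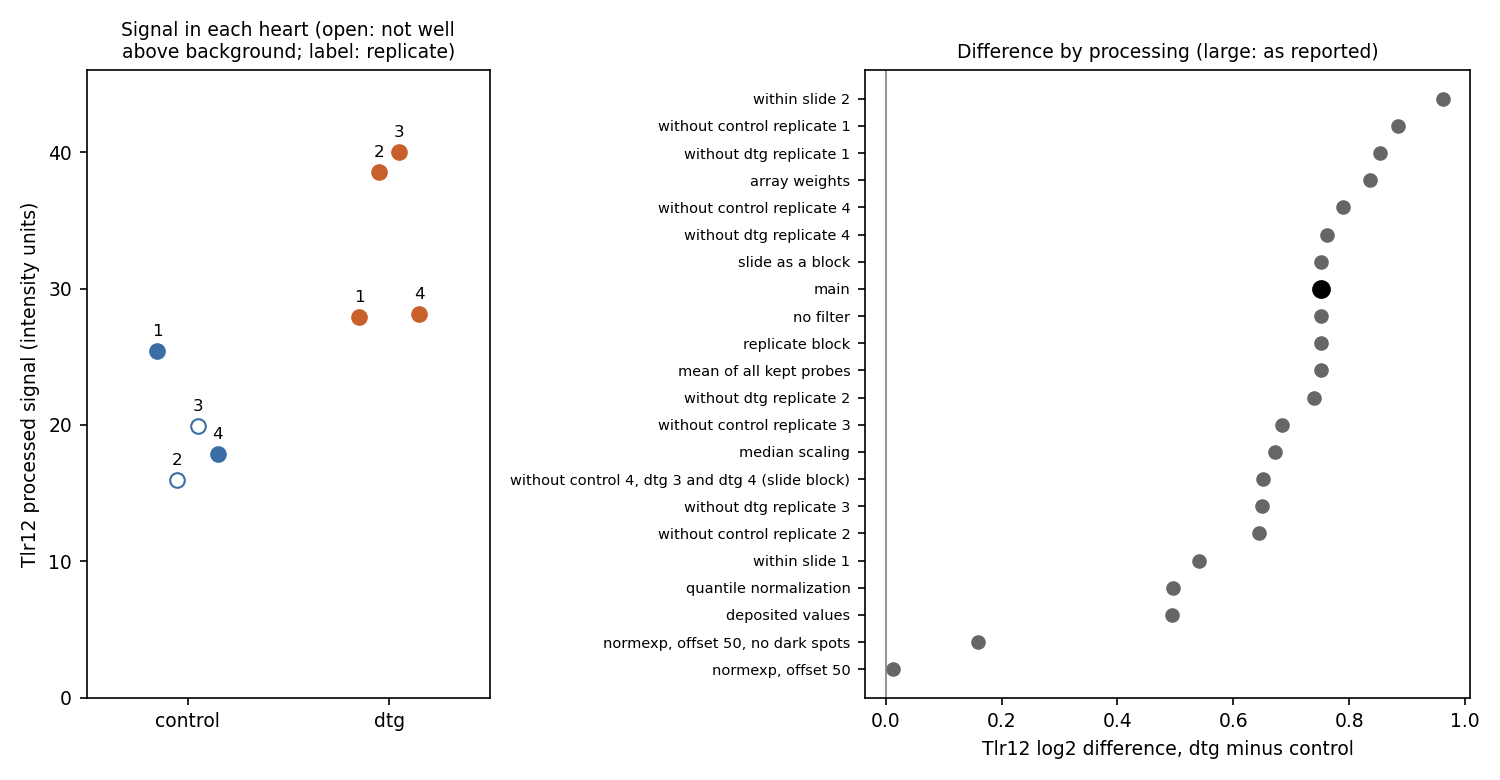
Left, Tlr12 processed signal in intensity units by heart, with open points for arrays where it was not well above background and the replicate number beside each point. Right, its log2 difference (dtg minus control) under each processing, all above 0, from 0.012 with normexp and dark spots kept to 0.96 within slide 2. The large point is the value reported.

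Of the 10 receptors, 6 had a higher mean in dtg hearts and 4 a lower one, with a median difference of 0.043 beside 0.015 over all 21434 genes and features in the fit. Tlr12 was the only one of the 10 whose groups did not overlap, and 0.519% of all features with a value on every array had such groups. No feature passed the adjusted threshold of 0.05 in either direction (0%), and 160 (0.746%) had an unadjusted p below it. The receptors were chosen by family name, and selected on measured values in that their detection and their dtg minus control differences on these arrays were known. The differences are therefore a description without a test, and nothing is read from these counts. Their signs moved with the scaling, at 4 higher and 6 lower after quantile normalization and in the deposited table, 3 and 7 with median scaling or normexp, and 5 and 5 with normexp and dark spots left out. The share of all features with a higher dtg mean moved likewise, from 55.4% to 45.5% and 45.3%, to 29.3% and 43.3%, and to 54.2%. Scaling to the median shifts every gene by the same amount, so those changes of sign follow from the scaling.

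**Figure D4:**
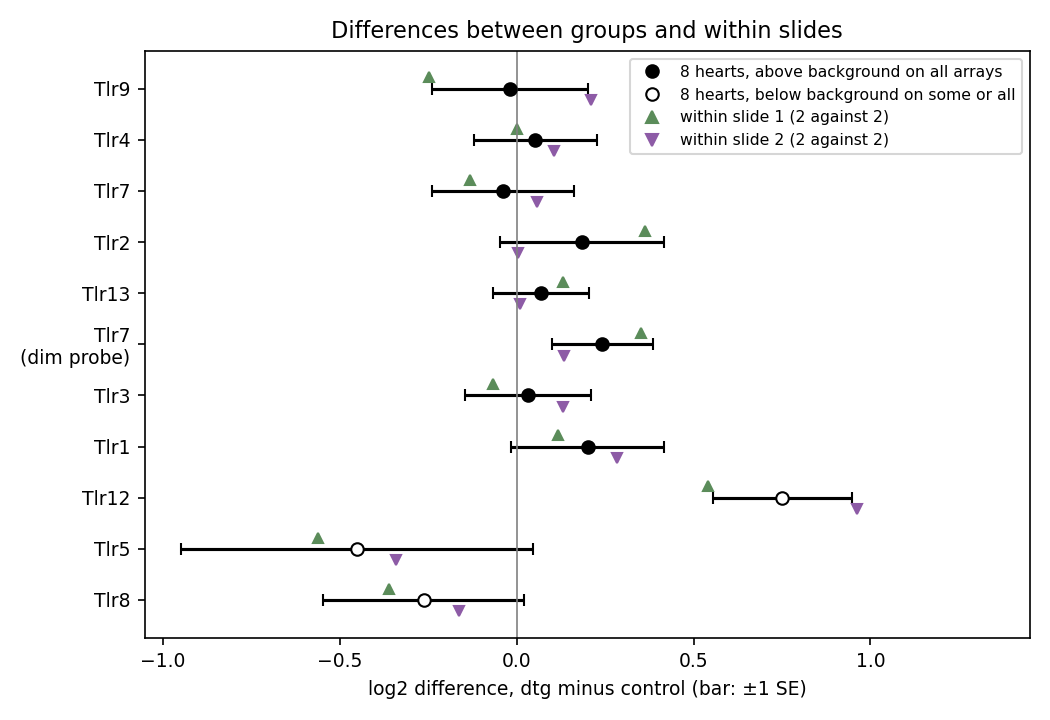
Log2 difference, dtg minus control, of each receptor probe over all 8 hearts with bars of ±1 SE, and within each slide (2 against 2). The difference of Tlr12, above background on 6 arrays, was the largest in size at 0.75. Probes above background on all arrays lay between -0.037 and 0.24, the ends being the brighter and the dimmer Tlr7 probe.

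Tlr9 and Tlr12 were set against the other genes that have a symbol and were above background on all 8 arrays. The profiles most like that of Tlr9 were Relt, Gdpgp1 and Tnfrsf11a, with r of 0.987, 0.984 and 0.982. Without controls 1 and 2 these were 0.984, 0.98 and 0.983. Most like Tlr12 were Unc93b1, Prrt4 and Cd52, with r of 0.926, 0.922 and 0.919, and 0.818, 0.809 and 0.911 without control 2 and dtg 3. The r values are descriptions over 8 arrays that share slides and scaling, picked as the highest of 13356 genes for Tlr9 and 13357 for Tlr12. Relt, Gdpgp1 and Tnfrsf11a were lower on slide 2, as Tlr9 was, by -0.55, -0.42 and -0.50. Unc93b1, Prrt4 and Cd52 had higher dtg means, as Tlr12 did, by 0.20, 0.35 and 0.26. The part of these slide and group differences in the r values was not tested.

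The genes that carry the receptors or relay their signal were taken from 8 lists of 89 genes, of which 74 were measured. None passed the adjusted threshold in either direction (limma, Benjamini-Hochberg over all features), and 1, Irf5, had an unadjusted p under 0.05. Means were higher in dtg hearts for 31 and lower for 43, with a median difference of -0.014 beside 0.015 for all features. With scaling to the array median these counts were 15 and 59, and on that scale 29.3% of all features had a higher dtg mean, against 55.4% on the scale reported.

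Of 10 accessory proteins 9 were measured, with none called and a median of 0.035. Unc93b1 is the chaperone that carries endosomal receptors out of the endoplasmic reticulum. It was the 1 pathway gene whose groups did not overlap, 1.35% of those measured beside 0.519% of all features with a value on every array. Its level was 1.306 ± 0.093 in controls and 1.502 ± 0.088 in dtg hearts (SD, n = 4 each), with a difference of 0.20, an SE of 0.10 and 0.20 within each slide. Cd14, the lipopolysaccharide co-receptor, differed by -0.0059 with an SE of 0.12, and Ly96, which encodes MD-2, by 0.042 with an SE of 0.17. Of 5 TIR adaptors 3 were measured and none called. Myd88, the adaptor of most Toll-like receptors, differed by -0.084 (SE 0.13), and Ticam1, the adaptor of Tlr3 that also serves Tlr4, by 0.057 (SE 0.10).

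All 20 kinases and ubiquitin ligases of the pathway were measured and none called. The smallest unadjusted p there was that of Btk, a kinase of B cells and myeloid cells, which was higher in the dtg mean by 0.34 with an SE of 0.25. Irak2, a kinase recruited by MyD88, differed by -0.19 with an SE of 0.15. Of 10 transcription factors 9 were measured, none was called, and 8 of the 9 had a lower dtg mean, at a median of -0.049, where 55.4% of all features had a higher one. That count did not hold within slides, where 4 of the 9 were higher in slide 1 and 5 in slide 2, at medians of -0.15 and 0.082. The median was also above 0 with normexp (0.048) and without dtg 4 (0.0012). With normexp and spots darker than their surroundings left out, the median was below 0, as on the scale reported. The exception over all hearts was Irf5, an interferon regulatory factor downstream of MyD88, at -1.37 ± 0.13 in controls and -1.06 ± 0.21 in dtg hearts (difference 0.31, SE 0.13, limma unadjusted p = 0.0496, adjusted p = 1). Nfkb1, a subunit of NF-kB, differed by -0.20 with an SE of 0.18.

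All 11 inhibitors were measured and none called, 5 with a higher and 6 with a lower dtg mean. The smallest unadjusted p was that of Il1rl1, which encodes the IL-33 receptor and differed by -0.14 with an SE of 0.12. Nfkbia, the inhibitor that holds NF-kB in the cytoplasm, differed by 0.15 (SE 0.14), and Irak3, which damps MyD88 signalling, by 0.13 (SE 0.12). Of 16 target genes 11 were measured and none called, 8 with a higher dtg mean at a median of 0.045. The chemokine Cxcl1 differed by 0.34 with an SE of 0.28, but by 0.067 without dtg 3, and by -0.19 within slide 1 and 0.86 within slide 2. The cytokines Tnf and Il1b differed by 0.048 (SE 0.20) and -0.11 (SE 0.33). Il6, Il10, Ifnb1 and Cxcl2 were above background on fewer than 4 arrays.

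Of 10 endogenous ligands 9 were measured and none called. S100a8, a neutrophil protein reported to act on Tlr4, differed by 0.21 with an SE of 0.19, and biglycan (Bgn), a matrix proteoglycan, by -0.21 with an SE of 0.17. Of 7 other receptors with a TIR domain 2 were measured, Il1r1 at -0.039 (SE 0.11) and Il18r1 at -0.40 (SE 0.31), and neither was called. Over all features the median SE of a difference was 0.18, and the 8 arrays limit the precision.

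**Figure D5:**
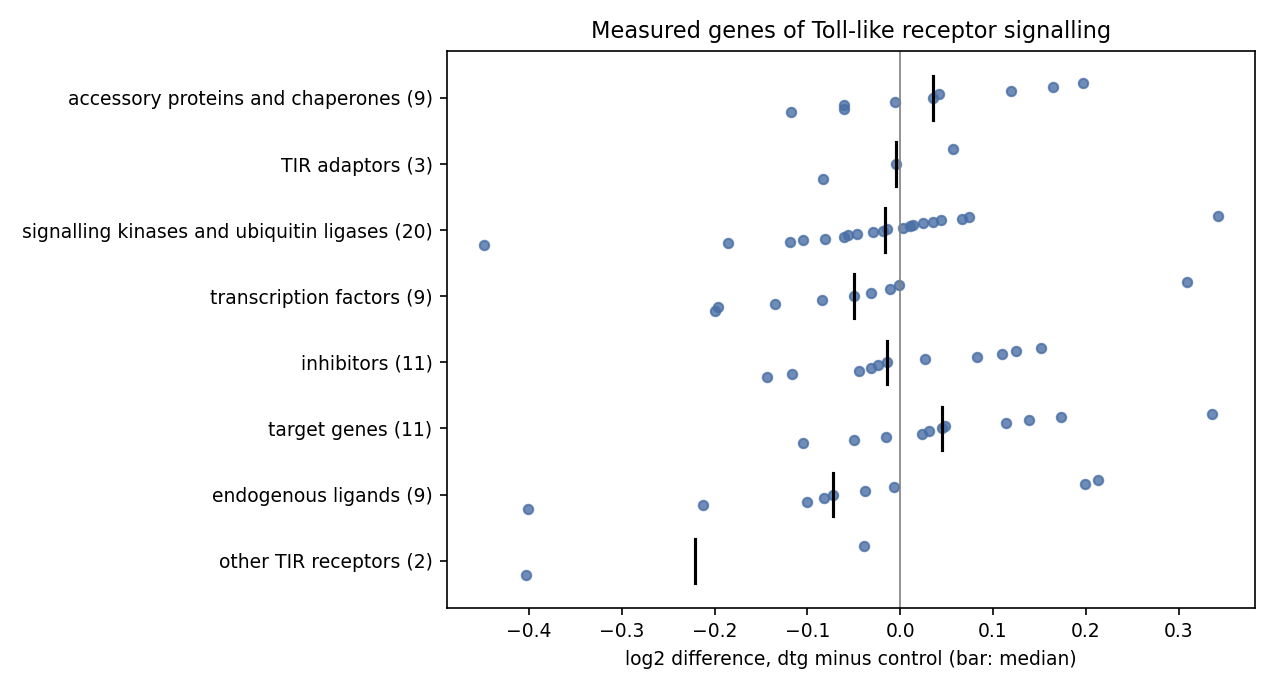
Log2 difference, dtg minus control, of the 74 measured pathway genes (points) by list, with the list's median as a bar. The points lie around 0 between -0.45 and 0.34, and no gene passed the adjusted threshold.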

How the data were processed

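RNA of 4 control and 4 dtg hearts was labelled from 100 ng per sample and hybridised to 1-colour arrays, per the labels' protocols. Per the submitters' processing notes, scanning output was made by Agilent Feature Extraction 10.7.3.1, and, per the file headers, the authors deposited a background-corrected signal per spot as a linear intensity. A second deposited table holds log2 values and matched quantile-normalized, probe-centred log2 signal (set against the scanner files here). Probe levels of dim genes depend on how background was treated.

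Control and outlier spots were left out, spots of a probe averaged on the log2 scale, and the array's 75th percentile subtracted. Probes were named by RefSeq accession (26369 of 39429 had a symbol). Probes above background on at least 4 arrays were kept (26118), then the brightest per gene (21434 genes and features). Differences were fitted with limma 3.58.1 in R 4.3.3 (lmFit, eBayes, no covariates), adjusted by Benjamini-Hochberg over all features at 0.05, and tested on simulated data. Receptor probes outside that fit took their SE from the same fit over all probes. Groups came from the sample labels. Summed marker levels are sums of linear signal divided by the 75th percentile. Named were all 10 receptors, up to 4 genes per pathway list by smallest unadjusted p, and the 3 genes most like Tlr9 (the brightest receptor probe) and Tlr12 (the largest difference); Cd14, Ly96, Tnf, the unmeasured targets and Il1b were named as well, after their values were seen. The receptors, lists and markers were chosen with earlier results of these data known. Alternatives were other background corrections (normexp with an offset of 50), scalings, filters, blocks and left-out arrays. Sequences come from RefSeq.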

Additional observations from a re-analysis of the deposited data

Results flagged for a closer look

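Among 42 groups of 4 hearts examined, the highest or lowest heart stood apart from the other 3 in 3 groups: its gap to the nearest, divided by the range of the group, was above Dixon's 95% critical value for 4 samples. Chance marks about 1 in 20 such groups. Tlr4 in control 4 was at -0.091, above the other controls (gap over range 0.846). Tlr8 in dtg 1 was at -6.59, above the other dtg hearts (0.855), though not well above background. The summed level of the dendritic cell markers in control 3 was 119.2 times the 75th percentile signal, above the other controls (0.91). That sum was mostly the Siglech probe, at a mean level of 6.57, and the mean log2 level over the 6 measured markers was lowest in control 3 among the controls (-0.98, with -0.86 the highest).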

How the results depend on the processing

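Of 22 alternatives, 21 were planned and 1, which leaves out control 4, dtg 3 and dtg 4 with the slide as a block, was chosen after seeing the data. None gave a gene past the adjusted threshold with limma, leaving out each heart in turn included (0 in each). At an unadjusted p below 0.05 the count ran from 13 with normexp background correction to 779 with array weights, against 160. With normexp and dark spots left out it was 102. With the replicate number as a block, 0 genes were called and 276 had an unadjusted p below 0.05. Same-numbered hearts correlated at 0.542, -0.545, 0.152 and 0.161 in their deviations from the group means. The dtg heart most like a control was the same-numbered one for controls 1 and 4 and another for controls 2 and 3. The hearts numbered 2, and those numbered 4, were on different slides. These values do not settle whether the numbers pair the samples. No pathway list count changed. Of 215 receptor values under an alternative, 3 moved by more than the spread between hearts and 30 had the opposite sign. The 3 were Tlr12 (0.012 and 0.16) and Tlr13 (-0.11), under normexp. The normexp offset of 50 intensity units by itself shrinks log2 differences of dim probes. The values 0.012 and -0.11 had dark spots kept. Changing only the filter, or adding the slide or replicate number as a block over all hearts, left each receptor difference unchanged by design. Some of the 215 values therefore could not move or change sign, and the counts are not a measure of stability. Tlr2 and Tlr12 alone kept their sign under each alternative. Tlr12 stayed between 0.64 and 0.89 when single hearts were left out. Tlr5, Tlr8 and Tlr12 are limited by signals close to background.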

Other observations

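2 further Toll-like receptors had probes on the array. Tlr6, the partner of Tlr2 for diacylated lipopeptides, was above background on 7 arrays, and its dtg minus control difference was 0.24 with an SE of 0.24. Tlr11, a profilin receptor like Tlr12, was above background on 3 arrays. The dtg mean of Tlr11 was higher by 1.37 with an SE of 0.76, and its highest level, -3.15, was that of dtg 3.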
